A study of Mus musculus with 6 samples.

Results

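Wdr48, the WD repeat protein also called UAF1, was examined together with the 3 ubiquitin-specific proteases it binds, Usp1, Usp12 and Usp46, and with 2 substrates reported for these complexes, Fancd2 and Phlpp1. Wdr48 was chosen by its measured difference in signal between BTBR and C57BL/6J, and the 5 others by their known ties to it, with results of these arrays in view. Every array probe whose gene symbol is one of the 6 was taken, out of 20703 named genes on the array. This gave 10 of 41174 non-control probes. Of these 10, 9 had a signal well above background on 3 or more arrays and entered the comparison. Strain differences of the 6 genes are therefore given as a description, without a p-value.

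Whole prefrontal cortex of 3 C57BL/6J and 3 BTBR mice was profiled on Agilent arrays labelled with a single dye, with 1 mouse on each. The C57BL/6J animals are labelled wild type and the others carry BTBR T+ Itpr3tf/J as their genotype, although their strain background field reads C57BL/6J. BTBR is an inbred line used to model autism, and C57BL/6J is the usual inbred control. Every animal was a male of 5 months that had received no drug. Whole tissue was used, so fewer cells of a type and less RNA per cell cannot be told apart.

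Wdr48 has no enzyme activity of its own. It binds the catalytic domain of Usp1, Usp12 or Usp46 and raises the activity of that deubiquitinase, which removes ubiquitin from target proteins. With Usp1 it takes ubiquitin off Fancd2 and the replication clamp PCNA and so takes part in DNA repair, while Usp12 and Usp46 have been linked to the AKT phosphatase Phlpp1 and, in neurons, to glutamate receptors.

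The probes are 60 bases long and their positions are on mouse build mm9. The first 30 bases are shown, in lower case and 5′ to 3′, for the probe with the widest strain gap among these genes, for both Usp12 probes, which differed in sign, and for both measured Fancd2 probes. No exon or UTR was assigned to them, because no annotation of that build was used here. Whether the probe sequences match both strains alike was not tested.
Wdr48 A_52_P467046, chr9:119834287-119834346, plus strand: gcagcttttccaagtacattccactcatgc
Usp12 A_51_P467573, chr5:147546985-147547044, minus strand: gattgtcgtttgtttgcctgcgattatgat
Usp12 A_52_P507187, chr5:147563475-147563534, minus strand: agatgaagattttttagacctttctgttga
Fancd2 A_52_P556462, chr6:113541170-113541229, plus strand: actcaccaagcatgtgcctttactcaaaaa
Fancd2 A_52_P66205, chr6:113546853-113546912, plus strand: aaatagaacatcaggagttaaaatagggga
The Wdr48 probe shared no run of 15 bases with any other probe on the array. Such a run was shared with 1 other probe by Fancd2 A_52_P556462 (a probe for Aldh3a1) and by Usp12 A_51_P467573 (Ncoa3), and with 2 other probes by Usp12 A_52_P507187.

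Levels below are log2 signals relative to the array's 75th percentile of all probes, so 0 is that percentile, which lay between 859 and 1607 intensity units. From 28101 to 30665 probes (68.2% to 74.5%) exceeded background clearly on each array. Markers of cortical excitatory neurons (5 of 5), inhibitory neurons (5 of 5) and astrocytes (4 of 4) were above background on all 6 arrays. So were 6 of 6 markers of striatal neurons, whose mean level was 2.47 on the array of C57BL/6J 3 and -0.91 to 0.64 on the others. Choroid plexus markers (4) had a mean level of -0.01 on the array of C57BL/6J 1 and -5.36 to -2.97 on the others. Of these 4, 2 were above background on all 6 arrays. The mean level of 4 oligodendrocyte markers did not overlap between the strains (3.74 to 4.09 in C57BL/6J, 3.17 to 3.41 in BTBR), and Mbp alone of the 4 overlapped. Of 4 microglial markers, Cx3cr1 differed by 1.22 (log2), while Csf1r, Aif1 and P2ry12 overlapped and differed by 0.01, -0.12 and 0.12. The part of these cells in the differences below was not tested. Replicates 1 and 2 of each strain lay on slide 1 and replicate 3 of each on slide 2, so differences are also given within each slide.

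Of the 9 entered probes, 5 had the higher mean in BTBR and 4 the lower. At a limma adjusted p under 0.05 over all 30011 entered probes, 3 of the 9 passed, all of them higher, where 5.44% of all probes passed (2.19% higher and 3.25% lower). The strains did not overlap for 7 of the 9, against 22.8% of all probes. Nothing is read from these shares, since the comparison was used in choosing the genes. The median difference of the 9 was 0.11 on the log2 scale, and that of all entered probes was 0.04.

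Wdr48, the shared activating subunit, was the gene with the wide gap. Its level was 0.77, 0.66 and 0.88 in the 3 C57BL/6J mice and 3.85, 4.06 and 3.86 in the 3 BTBR mice. All BTBR arrays were above all C57BL/6J arrays, and within each strain the mice lay close together. The means were 0.77 ± 0.11 and 3.92 ± 0.12 (SD, n = 3 each), a log2 difference of 3.16 ± 0.12 (SE of the fit).

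The gap was also seen in the unscaled signal of this probe, which was 2730, 1963 and 2218 intensity units in C57BL/6J and 13233, 14349 and 17188 in BTBR. The strains did not overlap before scaling either. The log2 difference of Wdr48 was 3.24 on slide 1, with 2 mice per strain, and 2.98 on slide 2, with 1 mouse per strain. Leaving out any 1 mouse gave 3.09 to 3.21. Of the entered probes, 34 had a larger increase than Wdr48, and 149 had a larger difference in either direction. Nothing is read from this rank, since Wdr48 was chosen by this difference. The gene has 1 probe on this array, so no second probe was at hand to set beside it.

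**Figure D1:**
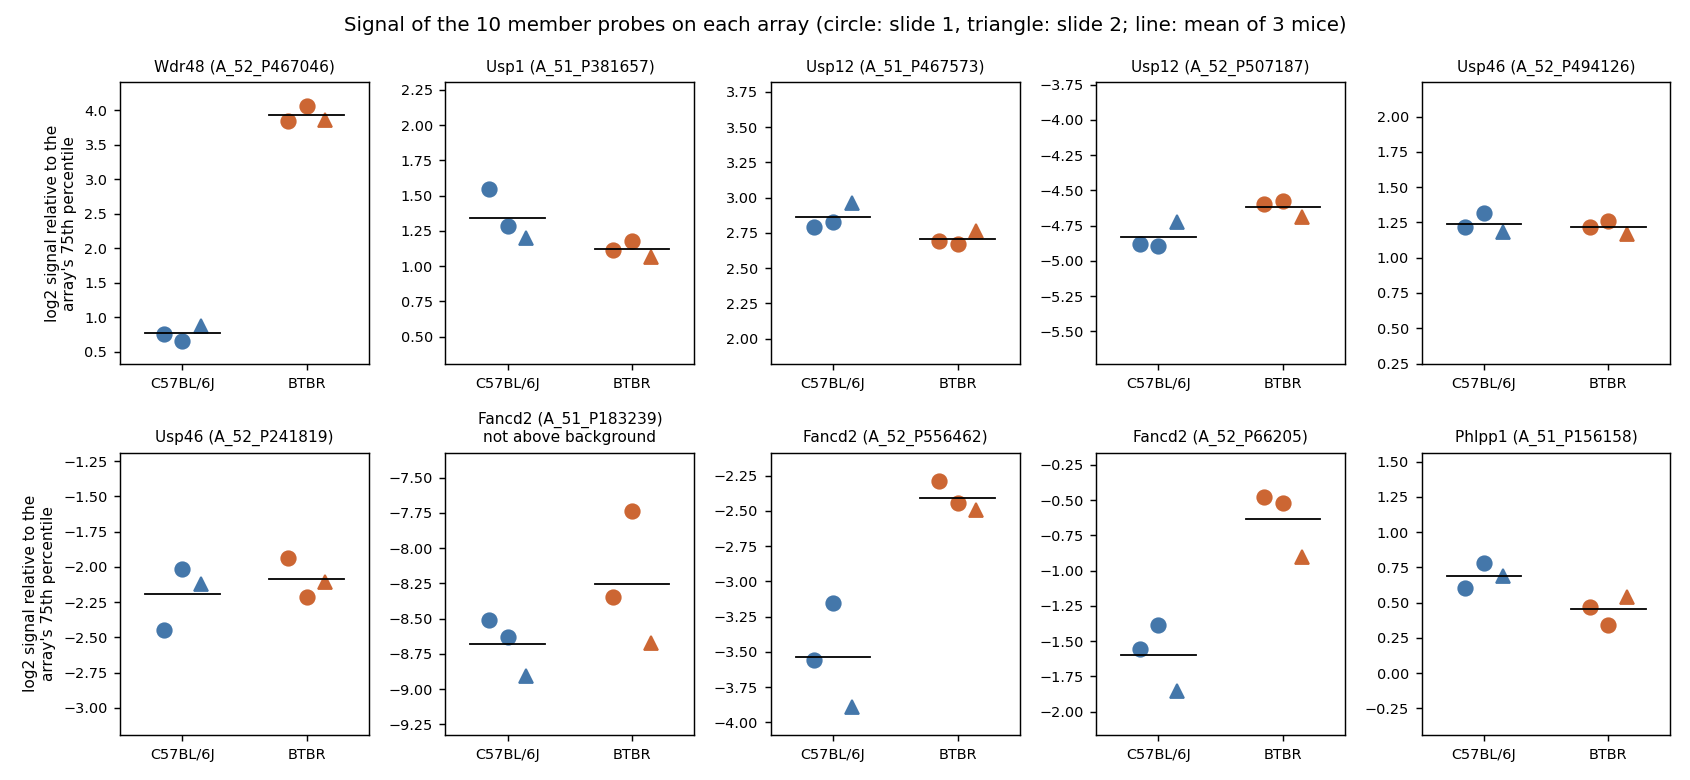
Level of each of the 10 probes (log2 signal relative to the array's 75th percentile) in the 3 C57BL/6J and 3 BTBR mice, with circles for slide 1, triangles for slide 2 and a line at each strain's mean. The vertical scale differs between panels; Wdr48 runs from 0.66 to 0.88 in C57BL/6J and from 3.85 to 4.06 in BTBR, while both Usp46 panels overlap.

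None of the 3 enzymes that Wdr48 binds showed a gap of that size. Usp1, the enzyme that acts on Fancd2 and PCNA, had levels of 1.54, 1.28 and 1.20 in C57BL/6J and 1.12, 1.18 and 1.06 in BTBR (probe at chr4:98602068-98602127, plus strand). Every BTBR mouse was below every C57BL/6J mouse, but the lowest C57BL/6J value and the highest BTBR value nearly met. The log2 difference was -0.22 ± 0.13 (SE), with -0.27 on slide 1 and -0.14 on slide 2, and it was -0.29 to -0.12 when 1 mouse was left out.

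Usp12, a deubiquitinase that needs Wdr48 and the cofactor Wdr20 for full activity, was read by 2 probes 16490 bases apart. The bright probe A_51_P467573 gave 2.79, 2.83 and 2.96 in C57BL/6J and 2.69, 2.67 and 2.76 in BTBR, a log2 difference of -0.15 ± 0.10 (SE). The dim probe A_52_P507187 gave -4.88, -4.89 and -4.73 in C57BL/6J and -4.60, -4.58 and -4.69 in BTBR, a difference of 0.21 ± 0.10. On both probes the strains did not overlap, yet the first was lower in BTBR and the second higher. On slide 2 the dim probe differed by 0.04 only, and with normexp background correction its difference turned to -0.27, so the dim probe gives no settled direction.

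Usp46, the close paralogue of Usp12 that acts on glutamate receptors in neurons, overlapped between the strains on both of its probes, which lie 1351 bases apart. On the brighter one, at chr5:74396489-74396548 on the minus strand, levels were 1.22, 1.32 and 1.19 in C57BL/6J and 1.22, 1.26 and 1.17 in BTBR. The log2 difference was -0.03 ± 0.10 (SE). On the dimmer one the difference was 0.11 ± 0.15, with C57BL/6J between -2.44 and -2.02 and BTBR between -2.22 and -1.94. The signs of both differences turned with normexp, to 0.06 and -0.04.

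**Figure D2:**
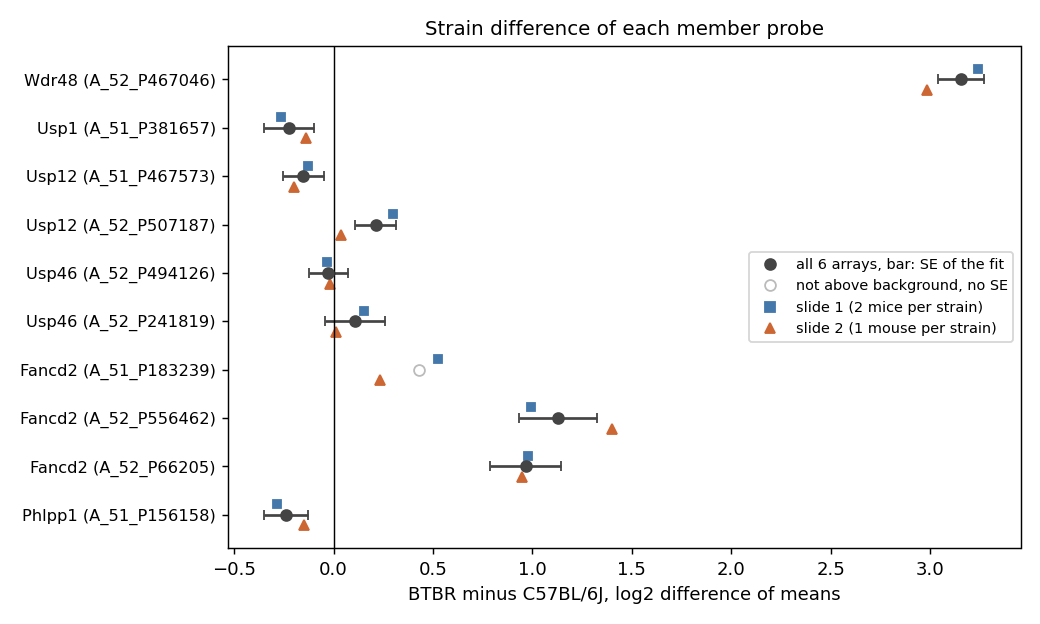
Difference between the strain means (BTBR minus C57BL/6J, log2) of each probe over all 6 arrays, with the SE of the fit as a bar, and the same difference within slide 1 (squares, 2 mice per strain) and slide 2 (triangles, 1 mouse per strain). Wdr48 stands at 3.16, the measured Fancd2 probes at 1.13 and 0.97, and the probes for Usp1, Usp12, Usp46 and Phlpp1 between -0.24 and 0.21; the open circle is a Fancd2 probe that was not well above background on any array.

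Fancd2, which carries the ubiquitin that Usp1 and Wdr48 remove and which acts in the repair of DNA crosslinks, was higher in BTBR on both of its measured probes. On A_52_P556462 the level was -3.55, -3.16 and -3.89 in C57BL/6J and -2.28, -2.44 and -2.49 in BTBR. On A_52_P66205, which lies 5683 bases away, it was -1.56, -1.39 and -1.85 in C57BL/6J and -0.48, -0.52 and -0.91 in BTBR. All BTBR mice were above all C57BL/6J mice on both, and C57BL/6J 3 was the lowest array on each.

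The log2 difference of Fancd2 was 1.13 ± 0.20 (SE), or 2.19-fold, on the first probe and 0.97 ± 0.18, or 1.95-fold, on the second. Within slides it was 0.99 and 1.40 on the first probe and 0.98 and 0.95 on the second. When 1 mouse was left out, the difference ran from 0.95 to 1.32 and from 0.84 to 1.10. With normexp it was 0.52 and 0.77, and neither probe then passed the threshold over all probes. In the authors' deposited matrix it was 0.47 and 0.70. The third probe, A_51_P183239 (chr6:113487745-113487804, plus strand), was not well above background on any of the 6 arrays and gives no level.

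Leaving out C57BL/6J 1, BTBR 1 or BTBR 2 left 0 of the 2 measured Fancd2 probes past the threshold, and leaving out any of the other mice left 1. Leaving out C57BL/6J 3 together with BTBR 2, the arrays with the highest striatal marker levels, also left 0. These calls are a description too, since Fancd2 was chosen with results of these arrays in view. Of the 5 markers of dividing cells, where Fancd2 is chiefly known to act, Mki67 and Birc5 were above background on all 6 arrays, and Top2a, Ccnb1 and Cdk1 were not above it on any. Mki67 was -4.29, -3.79 and -4.31 in C57BL/6J and -3.47, -2.83 and -3.98 in BTBR, a log2 difference of 0.71 ± 0.31 (SE) that did not pass (limma adjusted p = 0.324). Birc5 differed by 0.19 ± 0.17. The strains overlapped on both, the means were higher in BTBR as for Fancd2, and their part in the Fancd2 difference was not tested.

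Phlpp1, a phosphatase that switches off AKT and is stabilised by the deubiquitinases above, was a little lower in BTBR. Its level was 0.60, 0.78 and 0.69 in C57BL/6J and 0.47, 0.34 and 0.54 in BTBR (chr1:108290330-108290389, plus strand). The strains did not overlap, with the highest BTBR mouse just under the lowest C57BL/6J mouse. The log2 difference was -0.24 ± 0.11 (SE), with -0.28 on slide 1 and -0.15 on slide 2. For comparison, the median SE over all entered probes was 0.16, and the median size of a difference was 0.17.

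The other genes of these pathways were taken from lists written by known function or by symbol, with the brightest entered probe standing for its gene. The lists were chosen with earlier results of these data known. Of 173 such genes, 8 passed the threshold (4.62%), 1 of them higher in BTBR and 7 lower, where 5.3% of all 16334 named genes with an entered probe passed (2.04% higher and 3.26% lower). That share was no larger than over the whole array. With normexp 0 of the 8 passed (limma, 13 of the 173 at an unadjusted p under 0.05), with adjusted p between 0.0852 for Usp53 and 0.667 for Ube2t. All 8 kept their direction there, Id4 at -1.59, Usp53 at -1.30, Mad2l2 at -0.47 and Ube2t at 0.77 among them. With slide as a block 5 of the 8 passed, and Wdr83os, Mad2l2 and Id4 did not (adjusted p = 0.0728, 0.0531 and 0.0631). Among the 173 genes, 4, 1 and 5 passed without C57BL/6J 1, 2 and 3, of which 3, 1 and 5 were among the 8. Without BTBR 1, 2 and 3, 2, 6 and 4 passed, of which 2, 5 and 4 were among the 8.

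In the Fanconi anaemia pathway, the machinery that places and reads ubiquitin on Fancd2, 2 of 22 tested genes passed (9.09%), in opposite directions, and the list's median difference was -0.0016 against 0.01 for all genes. Ube2t, the conjugating enzyme that puts ubiquitin on Fancd2, rose from -2.23, -2.42 and -2.79 in C57BL/6J to -1.34, -1.54 and -1.27 in BTBR. This is 2.13-fold (log2 difference 1.09 ± 0.17 SE, limma adjusted p = 0.0161). Fancc, a subunit of the core complex that works with Ube2t, fell from -1.08, -1.06 and -1.06 to -1.71, -1.96 and -1.96. Its log2 difference was -0.81 ± 0.11 (adjusted p = 0.0103). Neither overlapped between the strains. Fanci, the partner of Fancd2, differed by -0.58 and did not pass (adjusted p = 0.327). Without C57BL/6J 2 Fancc did not pass (adjusted p = 0.0547), and Ube2t did not without C57BL/6J 2 or BTBR 1 (adjusted p up to 0.0795).

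Among 18 genes of PCNA ubiquitination and translesion synthesis, the other process that Usp1 and Wdr48 act on, 1 passed (5.56%), and the median was 0.08. Mad2l2, a subunit of the translesion polymerase zeta, fell by 0.53 ± 0.10 (SE; adjusted p = 0.0329). Its levels were 1.61, 1.45 and 1.55 in C57BL/6J and 0.97, 1.02 and 1.03 in BTBR, but leaving out any 1 mouse ended the call (adjusted p = 0.0718 to 0.172). Pcna itself differed by -0.36 (adjusted p = 0.183).

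None of the 4 measured cofactors that steer the Wdr48 complexes passed in limma (1 at an unadjusted p under 0.05), and their median was -0.15. Dmwd, a WD repeat cofactor of Usp12 and Usp46, differed by -0.42 (adjusted p = 0.111). Atad5, which brings Usp1 and Wdr48 to PCNA, differed by -0.25 (adjusted p = 0.365) and by -0.05 on its other probe. Wdr20 differed by -0.05 and Rad51ap1, a DNA-binding partner of Wdr48, by 0.02.

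Of 11 genes listed as other targets of the complexes, Id4 being there as a relative of reported ones, 1 passed (9.09%), and the median was -0.03. Id1, Id2 and Id3 differed by -0.05, -0.23 and 0.02 and did not pass (limma adjusted p = 0.729 to 0.985). Id4, an inhibitor of basic helix-loop-helix transcription factors and a relative of the Id proteins that Usp1 stabilises, fell from 1.47, 1.97 and 2.40 in C57BL/6J to 0.12, 0.86 and -0.05 in BTBR. The strains did not overlap, and the log2 difference was -1.64 ± 0.32 (SE; 3.11-fold, adjusted p = 0.0374). Its other probe gave -1.70 (adjusted p = 0.0354). Within their strains C57BL/6J 3 and BTBR 2 had the highest Id4 levels and also the highest striatal marker levels, whose part in the difference was not tested. Id4 passed without BTBR 2 and not when any other 1 mouse was left out (adjusted p up to 0.143).

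Among 23 genes of PHLPP and AKT signalling, 1 passed (4.35%), and the median was 0.02. Gsk3a, a kinase that AKT inhibits, fell from -1.95, -1.58 and -2.07 to -2.92, -3.25 and -2.84, a log2 difference of -1.14 ± 0.18 (SE; adjusted p = 0.0160). The strains did not overlap. The call ended without C57BL/6J 1, C57BL/6J 2 or BTBR 1 (adjusted p up to 0.0634).

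The wider enzyme family was taken by its Usp symbol alone, which also took in Usp6nl, a gene only named after the family. Of these 44 tested genes, 2 passed (4.55%), both lower, and the median was -0.00030. Usp53, a family member found at cell junctions, fell from -0.25, -0.32 and -0.35 to -1.78, -1.50 and -2.21 (-1.52 ± 0.19 SE, 2.87-fold, adjusted p = 0.0065). Its other probe differed by 0.02. Usp25 fell from 0.88, 0.71 and 0.16 to -0.48, -0.61 and -0.77 (-1.20 ± 0.20, adjusted p = 0.0218), and its other probe differed by -0.33 (adjusted p = 0.484). So the 2 probes of each gene gave different sizes, and which of them follows the gene's RNA was not tested. Usp53 passed whichever mouse was left out, and Usp25 passed when C57BL/6J 3 was left out but not without any other mouse (adjusted p up to 0.0960).

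Of 55 tested genes with a Wdr symbol, 1 passed (1.82%), and the median was 0.01. Wdr83os fell by 0.62 ± 0.13 (SE; adjusted p = 0.0469) and by 0.87 on its other probe (adjusted p = 0.0228). It is named for lying opposite Wdr83 and is not itself a WD repeat protein. With any 1 mouse left out, its brighter probe no longer passed (adjusted p = 0.0632 to 0.204). Over the 55 genes, differences ran from -0.62 to 0.50, beside 3.16 for Wdr48, which was chosen by its difference.

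**Figure D3:**
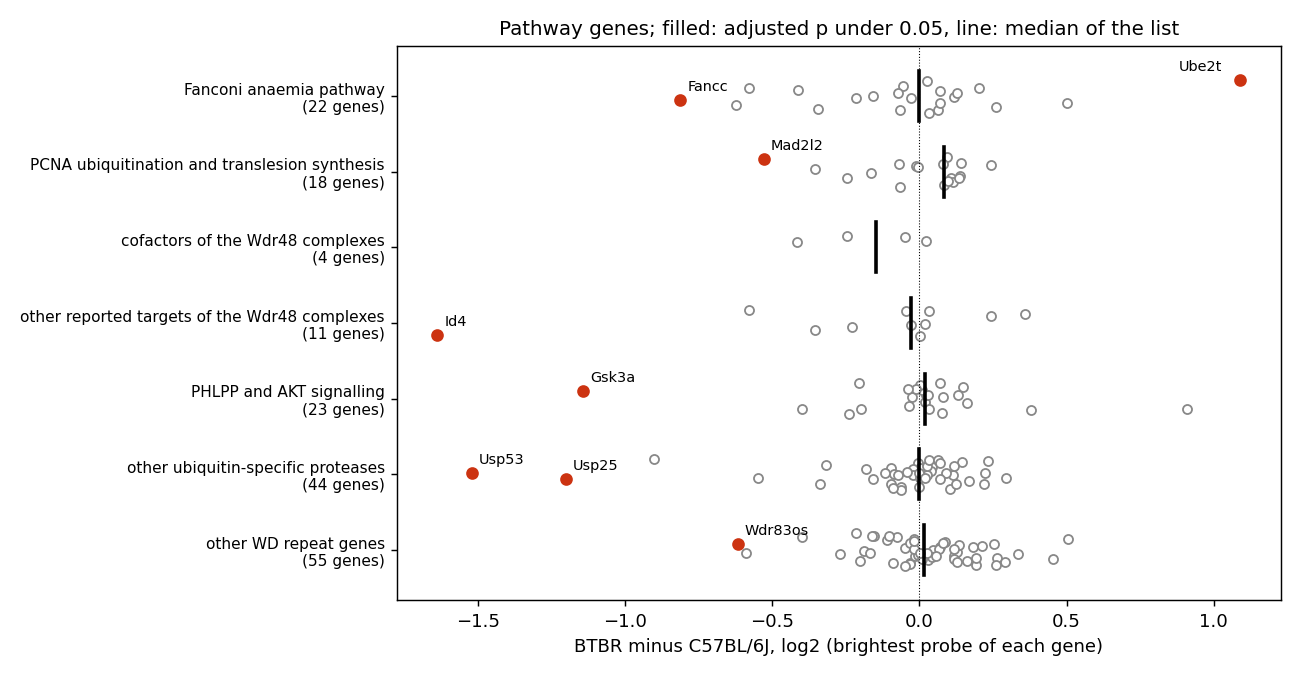
Difference between the strains (BTBR minus C57BL/6J, log2) of each tested gene in the 7 pathway lists, with filled points for an adjusted p under 0.05 and a thick line at the list's median. The medians lie between -0.15 and 0.08, and 8 genes are filled, of which Ube2t alone is higher in BTBR.

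The genes around each member were compared next, taken by position alone. Wdr48 itself was chosen by its strain difference, so the shares near it are given as a description. Within 1 Mb of the Wdr48 probe, 7 of 44 other entered probes, for 30 genes or transcripts, passed (15.9%), 2 higher and 5 lower in BTBR. Over all entered probes 5.44% passed. Around all 6 genes together, 15 of 204 probes passed (7.35%). The counts were 3 of 27 near Usp1 (11.1%), and, below the share of all probes, 3 of 56 near Fancd2 (5.36%), 1 of 20 near Phlpp1 (5%), 1 of 32 near Usp12 (3.12%) and 0 of 25 near Usp46 in limma (2 at an unadjusted p under 0.05). With normexp, Rpl14 was the 1 probe of the 15 that kept its call. Some sizes moved little there (Cx3cr1 1.18, Mobp -1.66, Myrip -0.60), and others more (Rpsa -1.65, Ogg1 -1.22, Setd5 0.06). The count over all 6 genes fell to 8, 7, 6 and 9 without C57BL/6J 1, C57BL/6J 2, BTBR 1 and BTBR 2, of which 7, 7, 6 and 9 were among the 15. It was 14 without C57BL/6J 3 or BTBR 3, of which 13 and 12 were among the 15. Cx3cr1, Rpsa, Mobp, Rpl14, 4930449I24Rik and Ogg1 passed whichever mouse was left out, and the other 8 genes or transcripts did not.

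Gorasp1, which encodes a Golgi stacking protein, has the probe nearest to that of Wdr48, 0.622 kb away on the opposite strand. Its level was -1.65, -1.79 and -1.92 in C57BL/6J and -1.41, -1.31 and -1.16 in BTBR. All BTBR mice were above all C57BL/6J mice, but the log2 difference of 0.49 ± 0.12 (SE) did not pass (adjusted p = 0.0865). The next probes that passed were farther out. Cx3cr1, the microglial fractalkine receptor, was higher by 1.22 (adjusted p = 0.0026), while its other probe differed by 0.23. Scn11a, a sodium channel subunit, was not well above background in any C57BL/6J mouse and was at least 2.0-fold higher in BTBR. Its probe entered through the BTBR arrays alone, so its limma adjusted p (0.0264) rests on background-level values in C57BL/6J. With normexp the difference of Scn11a was -0.10.

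The 5 probes near Wdr48 that were lower belonged to Rpsa (-3.14), Mobp (-1.83), Myrip (-0.67), Rpl14 (-5.51) and 5830454E08Rik (-0.78). Rpsa and Rpl14 are ribosomal proteins with near-identical copies elsewhere in the genome, whose part in these values was not tested. The Rpsa probe was above background in 2 of 3 BTBR mice, and a second Rpsa probe differed by 0.28. Mobp, a myelin protein, had other probes at -0.98 and -0.03, and Myrip, a myosin linker, had another at 0.08. No single direction held along the region around Wdr48.

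**Figure D4:**
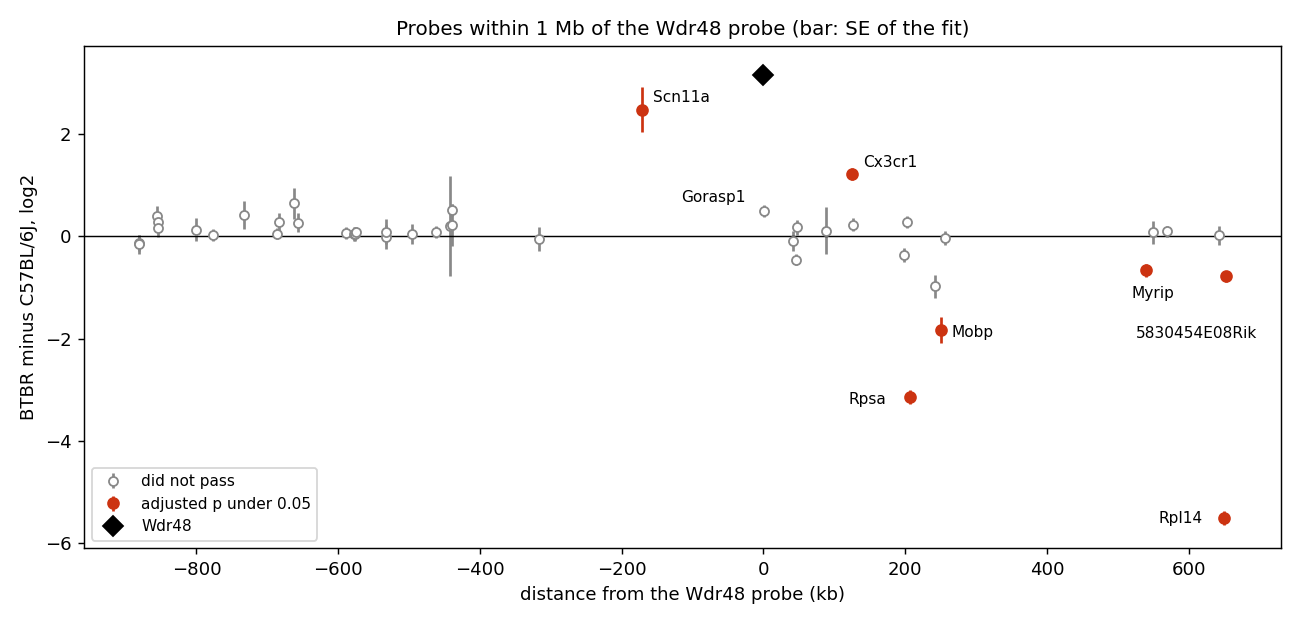
Difference between the strains (BTBR minus C57BL/6J, log2, bars are SE of the fit) of entered probes within 1 Mb of the Wdr48 probe, against their distance from it in kb. Filled points passed an adjusted p under 0.05, 2 higher and 5 lower; Scn11a is drawn at its fitted difference, although it has only a bound, and Gorasp1 is the nearest probe.

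Near Fancd2, Ogg1, the glycosylase that removes oxidised guanine from DNA, was not well above background in any BTBR mouse and was at least 7.00-fold lower there (adjusted p = 0.00087). A probe for Setd5, a chromatin regulator, was higher by 0.90 (log2), while its 4 other probes differed by -0.08 to 0.13. The transcript AK054191, whose probe lies 15.1 kb from that of Fancd2, fell by 1.11 (adjusted p = 0.0354). Near Usp1, both probes of Itgb3bp, a centromere protein and integrin binder, were higher, by 0.72 and 0.70, and the transcript AK038463 fell by 1.53. Near Usp12, 4930449I24Rik was higher by 1.37, and near Phlpp1, a probe for Pign, an enzyme of GPI anchor synthesis, was higher by 0.65 while its other probes differed by 0.17 and -0.34.

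Likeness to Wdr48 was measured over the 6 arrays as the root mean square difference between probes, each centred on its own mean. The closest named probes were those of Cuedc1 (0.159), Ssb (0.192), H60a (0.193), Adamdec1 (0.202) and Masp2 (0.210). Their log2 differences between the strains ran from 2.84 to 3.27, a step that this search selects for. Ssb and Adamdec1 were not well above background in any C57BL/6J mouse, and H60a was above it in 1 of 3. The likeness and differences of these genes therefore rest wholly or largely on background-level values there. The closest to Fancd2 probe A_52_P556462 were Adcy7 (0.0763), Utf1 (0.0776), Clasp2 (0.0798), Tcte3 (0.0829) and Tgfb1i1 (0.105). No probe for Usp1, Usp12, Usp46 or Phlpp1 could be among these, because the members were left out of the search.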

How the data were processed

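The authors' deposited scanner files give each spot's intensity on a linear scale. Per the file headers they came from Feature Extraction 10.7.3.1, whereas the submitters' notes on processing name 9.1. The authors' deposited matrix holds log2 values of unknown scaling (medians 8.82 to 8.83; correlation with log2 processed signal 0.915 to 0.929) and was an alternative only.

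From each array's log2 processed signal its 75th percentile was subtracted. Outlier-flagged spots were dropped where a probe had another spot, and a probe's spots were averaged. Probes well above background on 3 or more arrays (30011) were fitted in R 4.3.3 with limma 3.58.1, and files were read with the data.table package (version 1.17.8). Differences are BTBR minus C57BL/6J and p-values were adjusted by Benjamini-Hochberg over these probes. An "at least" fold replaces the dim strain's signal on each array by the dimmest measurable one, unless its own is higher. Symbols came from a GRCm38.p6 gene list, used for names only, by accession (27816 probes), symbol (5503) or synonym (380). A further 736 kept the deposited name and 6739 had none.

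The design text states 3 mice per strain. The genes and lists were chosen with earlier results of these data known. All 10 probes are accounted for. List genes and neighbours past the threshold were named, up to 8 per list or region, and otherwise the 2 list genes with the smallest p. For likeness the 5 closest were named. Gorasp1, Fanci, Pcna, Wdr20 and Rad51ap1 were named after their values were seen. The fit was tested on simulated data. Alternatives covered background correction, scaling, filters, flagged spots, the matrix, several probes per gene, the prior, array weights, blocks and leaving out mice. The normexp alternative began from each spot's mean signal and median background instead of the processed signal, with an offset of 50 units.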

Additional observations from a re-analysis of the deposited data

How the results depend on the processing

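The log2 difference of Wdr48, the value it was chosen by, was 3.16 at first and was 2.95 in the authors' matrix, 2.98 within slide 2 and 3.09 to 3.21 with 1 mouse left out. Probes of the 6 genes past the threshold, 3 at first, numbered 1 with normexp, without the filter on dim probes and without C57BL/6J 3 and BTBR 2, and 1 to 2 with 1 mouse left out. These counts are a description, since the 6 genes were chosen with results of these arrays in view. Pathway genes, 8 at first, numbered 0 with normexp, 4 without the filter, 5 with the slide block, 14 with array weights, 5 without C57BL/6J 3 and BTBR 2, 5 on slide 1 alone and 1 to 6 with 1 mouse left out. Neighbouring probes, 15 at first, numbered 1 with normexp, 33 with array weights, 8 without C57BL/6J 3 and BTBR 2 and 6 to 14 with 1 mouse left out. All probes, 1632 at first (657 higher, 975 lower), numbered 170 with normexp (44 higher, 126 lower), 3928 with array weights (2016 higher, 1912 lower; this fit stopped before its tolerance was reached), 1008 without C57BL/6J 3 and BTBR 2 and 858 to 1472 with 1 mouse left out. On slide 1 alone, 900 were higher and 897 lower. Scn11a reversed with normexp, to -0.10 (adjusted p = 0.976). The cause of these shifts was not tested. The 2 settings without C57BL/6J 3 and BTBR 2 and on slide 1 alone were chosen after seeing the data.

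No pairing of the mice by replicate number was seen: same-numbered arrays correlated at 0.03, -0.17 and -0.08 in their deviations, and 0 of 6 correlated best with their own number. With 3 arrays per strain, these values cannot show that no pairing existed. With the replicate number as a block, 922 probes, 2 probes of the 6 genes, 2 pathway genes and 7 neighbouring probes passed. The number of arrays, 3 per strain, limits precision. Dim probes moved with normexp, which took Fancd2 A_52_P556462 from 1.13 to 0.52 (0.47 in the authors' matrix) and Usp12 A_52_P507187 from 0.21 to -0.27. That setting began from the mean spot signal and added an offset of 50 units, beside 36.0 to 54.6 processed units for this Usp12 probe. The part of the input, the offset and the correction in these shifts was not tested.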
